A study of Mus musculus with 24 samples.

Results

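The Hedgehog pathway genes described here are 9 genes of the 53946 in the count table, taken by name and matched by Ensembl identifier: the ligand Shh, the receptor Ptch1, the transducer Smo, the co-receptors Boc and Gas1, the decoy receptor Hhip, and the transcription factors Gli1, Gli2 and Gli3. Their levels were set side by side across 24 RNA libraries of mouse ventral otocysts, the part of the embryonic inner ear that holds the cochlea, at embryonic day 14.5. All embryos were labelled C57BL/6J x 129X1/SvJ and carried at least 1 lost copy of Fgf20, and RNA was pooled, for every library, from 3 to 7 embryos that shared a genotype. TRAP libraries hold polyA RNA pulled down through L10a, a ribosomal protein tagged with eGFP and made in cells of the Fgf20-Cre lineage. Pre-TRAP libraries are labelled by that name and are read here as RNA of the tissue before that purification, although the labels describe the extraction of both in the same words. There were 8 TRAP libraries of Fgf20-/- embryos (TRAP mut), 8 TRAP libraries of Fgf20+/- embryos (TRAP het), 4 pre-TRAP libraries of Fgf20-/- embryos (pre-TRAP mut) and 4 of Fgf20+/- embryos (pre-TRAP het). Each group was split evenly between experiment 2 and experiment 1, and no wild-type embryo was used as a reference.

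Hedgehog proteins are secreted signals. As background, Ptch1 keeps Smo inactive until a ligand binds, active Smo acts through the primary cilium to turn the Gli proteins into activators or to stop their processing into repressors, and Gli1, Ptch1 and Hhip are themselves transcribed in response to the signal in many tissues. In the inner ear, Hedgehog signalling is known for its part in ventral patterning of the otic vesicle, and Shh from the spiral ganglion is known to hold back hair cell differentiation in the cochlear duct.

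Of the feedback genes, Hhip and Ptch1 are shown with the 250 bases before their RefSeq start (build GRCm38.p6, 5′ to 3′ on the gene's strand), because both are known response genes of the pathway and Hhip was lower on tagged ribosomes while Ptch1 had no called difference. Hhip lies on the minus strand, window chr8:80058009-80058258, and Ptch1 on the minus strand, window chr13:63565736-63565985. Capitals mark the 6 letters CCACCC, part of the site that GLI proteins bind.
Hhip: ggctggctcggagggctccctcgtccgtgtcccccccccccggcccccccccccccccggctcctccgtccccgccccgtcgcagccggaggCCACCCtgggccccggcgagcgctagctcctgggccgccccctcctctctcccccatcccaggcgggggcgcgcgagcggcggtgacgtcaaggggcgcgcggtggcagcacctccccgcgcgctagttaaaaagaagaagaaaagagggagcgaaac
Ptch1: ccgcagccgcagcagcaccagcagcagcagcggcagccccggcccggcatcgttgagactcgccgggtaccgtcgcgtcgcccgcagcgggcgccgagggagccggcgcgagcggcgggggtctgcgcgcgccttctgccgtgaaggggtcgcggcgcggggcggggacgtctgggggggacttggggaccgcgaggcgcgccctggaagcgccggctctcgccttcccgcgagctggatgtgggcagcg
The Hhip window held these letters once, starting 158 bases before the start, and had a GC content of 76.0%. The Ptch1 window held them on neither strand and had a GC content of 78.4%. Of the 9 genes, 6 had a promoter in the RefSeq table (Gas1, Gli2, Gli3, Hhip, Ptch1 and Smo). The full GLI consensus GACCACCCA, searched as an exact match on both strands, was found in 0 of these 6 windows and in 0.225% of 32851 promoters of the same length. The shorter core CCACCC, or GGGTGG on the other strand, was searched after the consensus had given no match. It lies within the consensus. It was present in 4 of the 6 windows (Gli2, with 2 matches, Gli3, Hhip and Smo) and in 28.1% of all promoters, whose median GC content was 52.4%, against 58.8% to 78.4% in the 6. These matches describe letters and not binding.

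Total counts ran from 3.07e+07 to 5.34e+07 per library. Levels are given as CPM, counts scaled to a common effective total, which is each library's total multiplied by its TMM normalisation factor. Fgf20, the targeted gene, averaged 2.24 ± 0.738 CPM in TRAP mut and 4.20 ± 0.975 CPM in TRAP het libraries (SD, n = 8 each), and 0.237 ± 0.0702 CPM in pre-TRAP mut and 0.879 ± 0.578 CPM in pre-TRAP het libraries (SD, n = 4 each), which fits the labels in direction. Against pre-TRAP, TRAP libraries were called higher for 10 of 10 prosensory markers and for 11 of 13 neuron markers, and lower for 11 of the 13 periotic mesenchyme markers tested and for 6 of 6 endothelium markers. Of all 24242 genes tested, 27.9% were called higher and 31.2% lower. The summed neuron markers covered 3370 to 4420 CPM in TRAP mut, 2430 to 4650 in TRAP het, 556 to 766 in pre-TRAP mut and 491 to 797 in pre-TRAP het libraries. The summed mesenchyme markers covered 362 to 1260, 279 to 981, 1030 to 1260 and 979 to 1470 CPM in the same groups, and no marker of either list was at 0 in every library. TRAP libraries 3, 4, 5 and 6 stood apart from the other 12 TRAP libraries, with 564 to 1260 against 279 to 513 CPM of mesenchyme markers. Values of TRAP over pre-TRAP and of mut over het in TRAP are therefore also given without these 4. In such bulk RNA, fewer cells of a type and less RNA per cell cannot be told apart.

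Tagged-ribosome RNA and the RNA before purification carried the Hedgehog genes in different proportions. Shh, Gli2 and Gli3 were higher in TRAP than in pre-TRAP libraries, whereas Hhip, Boc, Gli1 and Smo were lower, and Ptch1 and Gas1 did not pass the test. That is 7 of 9 genes called in edgeR at an adjusted p under 0.05, 3 higher and 4 lower. The count was also 7 without TRAP libraries 3 to 6, where 61.2% of 24042 genes tested were called. Without these libraries the log2 fold changes of the genes for which they are not given below were -0.61 ± 0.13 for Smo, -0.77 ± 0.10 for Gli1, 0.53 ± 0.15 for Gli2, 0.65 ± 0.14 for Gli3, 0.27 ± 0.14 for Gas1 (edgeR adjusted p = 0.106) and -0.03 ± 0.16 for Ptch1. The background is high in this comparison, since 59.1% of the 24242 genes tested were called, 27.9% higher and 31.2% lower. The CPM ranges of the 16 TRAP and 8 pre-TRAP libraries did not overlap for 3 of the 9 (Shh, Gli1 and Hhip), where 14.6% of all tested genes had ranges that did not overlap. Shh, counted among these 3 and among the 3 higher, passed the filter on low counts in TRAP, where it is high, and not in the pre-TRAP libraries alone.

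**Figure D1:**
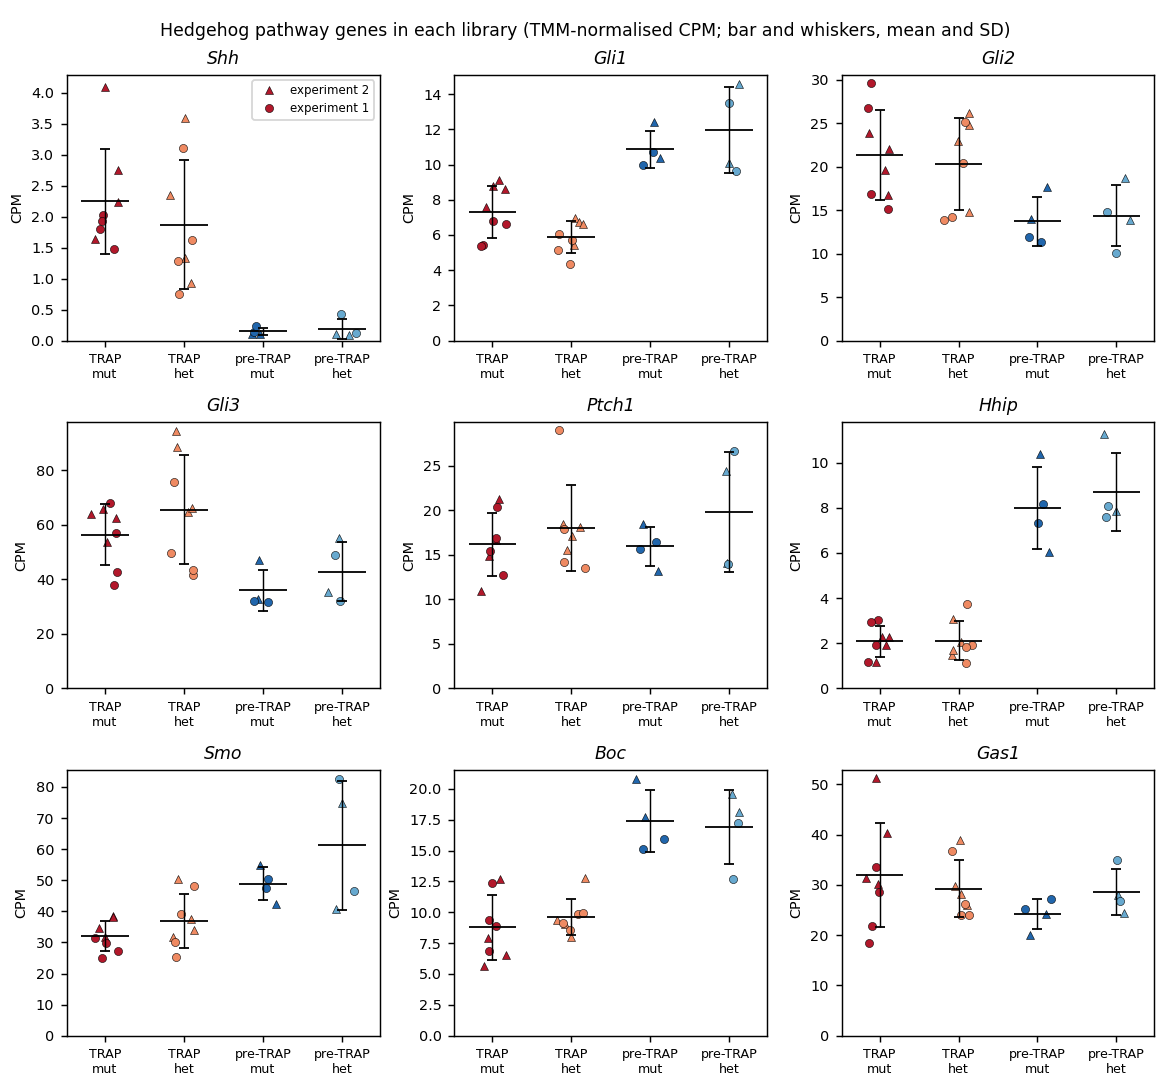
Levels in CPM (TMM-normalised, vertical axes from 0) of the 9 Hedgehog genes in each of the 24 libraries, by group along the horizontal axis; triangles are experiment 2 and circles experiment 1, and the bar and whiskers are the mean and SD of the group. Every TRAP library lies above every pre-TRAP library for Shh, and below every one for Gli1 and Hhip, while mut and het libraries of the same method overlap for each gene.

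Shh, the ligand, had the largest difference of the 9. It ranged in TRAP mut libraries from 1.48 to 4.09 CPM with a median of 1.98, and in TRAP het libraries from 0.749 to 3.59 CPM with a median of 1.48. Before purification, mut libraries held 0.11, 0.147, 0.236 and 0.111 CPM and het libraries 0.0836, 0.423, 0.119 and 0.112 CPM. All 16 TRAP libraries were above all 8 pre-TRAP libraries, and the pre-TRAP values rest on 3 to 15 counts per library and 50 in all. Shh was 11.9-fold higher in TRAP (log2 fold change 3.58 ± 0.36 SE, edgeR adjusted p = 2.2e-09). It entered this fit through the TRAP libraries, where it is high, and was too low to be tested in the pre-TRAP libraries alone. In experiment 2 the log2 fold change was 4.49 ± 0.48 and in experiment 1 it was 2.91 ± 0.44, both called, with pre-TRAP means of 0.104 ± 0.0138 CPM in experiment 2 and 0.231 ± 0.137 CPM in experiment 1 (SD, n = 4 each). The difference between the experiments had an unadjusted p of 0.0322 and an adjusted p of 1. Shh was 3.70 ± 0.36 higher on the log2 scale without TRAP libraries 3 to 6. Neuron markers moved the same way, as given above, and so did other lists. Called higher were 10 of 10 prosensory, 6 of 9 hair cell, 6 of 8 medial Kolliker organ and 6 of 8 otic epithelium markers. In the same lists 0, 0, 1 and 1 were called lower. The part of these markers in the Shh difference was not tested.

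Ptch1, the receptor that binds the ligand and restrains Smo, was among the members with no detected difference. It had 10.9 to 21.3 CPM in TRAP mut libraries (median 16.1) and 13.5 to 29.0 CPM in TRAP het libraries (median 17.5). The pre-TRAP values were 18.5, 16.4, 15.6 and 13.2 CPM in mut and 24.4, 26.7, 13.9 and 14.1 CPM in het libraries. The ranges of all 4 groups overlapped, and the pre-TRAP het libraries 17 and 19 stood above the other 2 of their group. The log2 fold change of TRAP over pre-TRAP was -0.07 ± 0.15 (SE, edgeR adjusted p = 0.716), with a 95% interval of -0.37 to 0.23. Without library 17 it was 0.01 and without library 19 it was 0.07.

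Smo, the membrane protein that Ptch1 holds inactive, fell on tagged ribosomes. It had 25 to 38.6 CPM in TRAP mut libraries (median 31.7) and 25.2 to 50.3 CPM in TRAP het libraries (median 35.8). Pre-TRAP mut libraries held 55.0, 47.6, 50.5 and 42.3 CPM, and pre-TRAP het libraries 75.0, 82.7, 46.5 and 40.7 CPM. Of the 16 TRAP libraries, 14 were below every pre-TRAP library and all 16 were below the pre-TRAP mean of 55.0 CPM. Smo was 1.6-fold lower in TRAP (log2 fold change -0.68 ± 0.13 SE, edgeR adjusted p = 4.7e-05), and it was called in experiment 2 (-0.47 ± 0.17) and in experiment 1 (-0.86 ± 0.19).

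The co-receptors differed from each other. Boc, an immunoglobulin-family protein that presents the ligand to Ptch1, had 5.67 to 12.7 CPM in TRAP mut libraries (median 8.4) and 8.01 to 12.8 CPM in TRAP het libraries (median 9.25). Before purification, mut libraries held 20.8, 15.9, 15.1 and 17.7 CPM and het libraries 18.1, 17.2, 12.7 and 19.6 CPM. In 14 of 16 TRAP libraries Boc was below every pre-TRAP library, and it was 1.87-fold lower in TRAP (log2 fold change -0.90 ± 0.13 SE, edgeR adjusted p = 1.15e-06). In the mesenchyme-rich TRAP libraries 3 to 6 Boc had 9.14 to 12.8 CPM, against 5.67 to 9.91 CPM in the other 12. Without these 4 libraries the log2 fold change was -1.05 ± 0.11.

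Gas1, a membrane-anchored co-receptor named for growth arrest, had 18.4 to 51.3 CPM in TRAP mut libraries (median 30.8) and 24.0 to 39.0 CPM in TRAP het libraries (median 27.2). The pre-TRAP values were 24.2, 25.2, 27.1 and 20.1 CPM in mut and 28.0, 35.0, 26.8 and 24.5 CPM in het libraries. The groups overlapped, and the log2 fold change of TRAP over pre-TRAP was 0.20 ± 0.14 (SE, edgeR adjusted p = 0.234; 95% interval -0.09 to 0.48). The experiments gave different signs. In experiment 2 TRAP libraries averaged 34.5 ± 8.44 CPM (SD, n = 8) and pre-TRAP libraries 24.2 ± 3.26 CPM (SD, n = 4), a log2 fold change of 0.56 ± 0.16 (adjusted p = 0.0129). In experiment 1 TRAP libraries averaged 26.7 ± 6.06 CPM and pre-TRAP libraries 28.5 ± 4.41 CPM, a log2 fold change of -0.14 ± 0.19 (adjusted p = 0.58). The test of this difference between experiments gave an unadjusted p of 0.0251 and an edgeR adjusted p of 1.

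Hhip, which binds Hedgehog ligands at the cell surface without passing the signal on, had the largest fall. It had 1.14 to 3.02 CPM in TRAP mut libraries (median 2.09) and 1.10 to 3.74 CPM in TRAP het libraries (median 1.86). Pre-TRAP mut libraries held 10.4, 8.18, 7.35 and 6.05 CPM, and pre-TRAP het libraries 11.3, 8.09, 7.59 and 7.85 CPM. No TRAP library reached a pre-TRAP library, and Hhip was 4.02-fold lower in TRAP (log2 fold change -2.01 ± 0.19 SE, edgeR adjusted p = 7.2e-10). It was called in experiment 2 (-2.11 ± 0.24) and in experiment 1 (-1.88 ± 0.28). The mesenchyme-rich TRAP libraries 3 to 6 averaged 2.91 CPM of Hhip (1.9 to 3.74) and the other 12 averaged 1.82 CPM (1.1 to 3.02), ranges that overlapped. Without the 4 libraries the log2 fold change was -2.20 ± 0.17. Mesenchyme markers were lower in most TRAP libraries. TRAP het library 5 and TRAP mut library 6 had 981 and 1260 CPM of these markers, where the pre-TRAP range was 979 to 1470 CPM. Hhip in libraries 5 and 6 was 3.74 and 2.93 CPM, where the lowest pre-TRAP value was 6.05 CPM. The part of mesenchyme content in the Hhip difference was not tested.

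**Figure D2:**
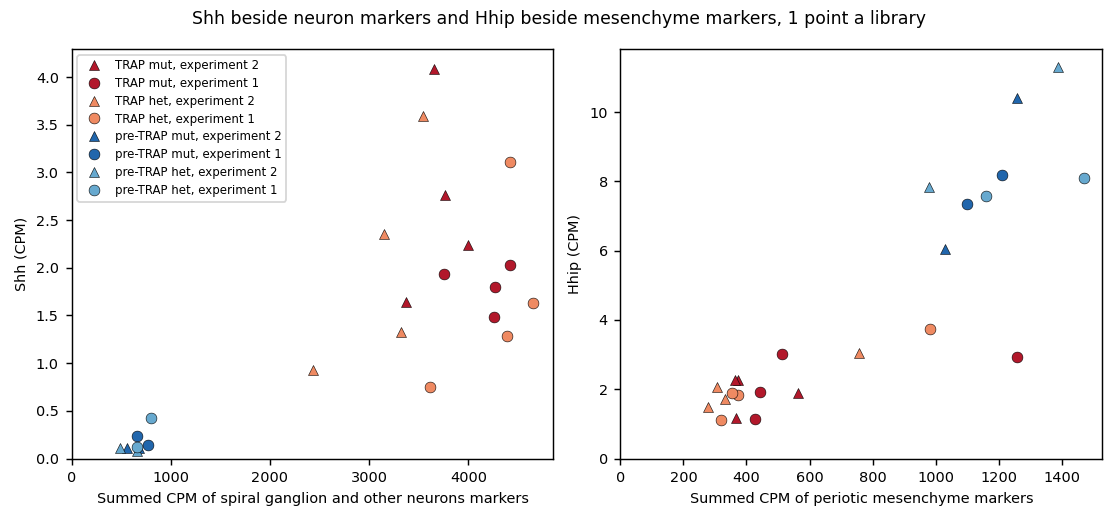
Left, Shh in CPM (vertical) against the summed CPM of the 13 neuron markers (horizontal); right, Hhip in CPM against the summed CPM of the 14 periotic mesenchyme markers. Each point is 1 library, coloured by group, with triangles for experiment 2 and circles for experiment 1. Shh is at most 0.423 CPM in the pre-TRAP libraries, where the neuron sum is at most 797 CPM, and Hhip is at least 6.05 CPM in the pre-TRAP libraries, where the mesenchyme sum is at least 979 CPM. In the TRAP libraries the mesenchyme sum covers 279 to 1260 CPM and Hhip 1.10 to 3.74 CPM. The part of the markers in either difference was not tested.

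The 3 Gli factors, zinc finger proteins that carry the signal into the nucleus, did not move together. Gli1, an activator that is itself a common read-out of the pathway, had 5.37 to 9.15 CPM in TRAP mut libraries (median 7.19) and 4.33 to 6.95 CPM in TRAP het libraries (median 5.88). Before purification, mut libraries held 12.4, 10.7, 10.0 and 10.4 CPM and het libraries 14.6, 13.5, 9.66 and 10.1 CPM. Every TRAP library was below every pre-TRAP library, and Gli1 was 1.77-fold lower in TRAP (log2 fold change -0.82 ± 0.10 SE, edgeR adjusted p = 1.02e-07). Experiment 2 gave -0.63 ± 0.15 and experiment 1 gave -0.99 ± 0.17, both called.

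Gli2, the main activator in many mouse tissues, had 15.1 to 29.6 CPM in TRAP mut libraries (median 20.8) and 13.9 to 26.2 CPM in TRAP het libraries (median 21.7). The pre-TRAP values were 17.6, 11.9, 11.3 and 14.0 CPM in mut and 18.7, 14.8, 10.1 and 13.9 CPM in het libraries. The ranges overlapped, with 10 of 16 TRAP libraries above every pre-TRAP library, and Gli2 was 1.49-fold higher in TRAP (log2 fold change 0.57 ± 0.15 SE, edgeR adjusted p = 0.00158). Gli3, which acts largely as a repressor when no ligand is present, had 37.8 to 67.9 CPM in TRAP mut libraries (median 59.8) and 41.6 to 94.4 CPM in TRAP het libraries (median 65.3). Pre-TRAP mut libraries held 47.1, 31.8, 31.9 and 32.8 CPM, and pre-TRAP het libraries 55.0, 49.0, 32.0 and 35.2 CPM. Again 10 of 16 TRAP libraries were above every pre-TRAP library. Gli3 was 1.53-fold higher in TRAP (log2 fold change 0.61 ± 0.13 SE, edgeR adjusted p = 0.000303). Gli2 was called in experiment 2 (0.46 ± 0.17, adjusted p = 0.0423) and in experiment 1 (0.71 ± 0.23, adjusted p = 0.0189). Gli3 was called in experiment 2 (0.76 ± 0.16) and missed the threshold in experiment 1 (0.49 ± 0.21, adjusted p = 0.0693).

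By mean level, the methods kept a fixed order for all genes but Ptch1. Shh, Gli2, Gli3 and Gas1 had both TRAP groups above both pre-TRAP groups, although Gas1 was not called and its ranges overlapped, and Gli1, Hhip, Smo and Boc had both TRAP groups below. Within a method, mut and het were neighbours in that order and overlapped for each gene. For Ptch1 the order was pre-TRAP het (19.8 CPM), TRAP het (18.0), TRAP mut (16.2) and pre-TRAP mut (15.9), and for Gas1 it was TRAP mut (31.9 CPM), TRAP het (29.3), pre-TRAP het (28.6) and pre-TRAP mut (24.1), with no neighbours that stood apart beyond their ranges. Levels were not compared between genes, since no transcript lengths were used here.

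Loss of the second Fgf20 copy was not accompanied by a called change in any Hedgehog gene. On tagged ribosomes 0 of 9 genes were called in mut against het, where 0.0742% of 21577 genes were called by edgeR. At an unadjusted p under 0.05 there was 1 of the 9, against 813 of all genes tested (3.77%), and DESeq2 called 0 of them and 53 genes in all. Before purification 0 of the 8 genes tested were called, where 0.00455% of 21954 genes were. At an unadjusted p under 0.05 there were 0 of the 8, against 1048 of all genes tested (4.77%), and DESeq2 called 0 of them and 2 genes in all. Shh was too low in the pre-TRAP libraries to enter that test.

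Gli1 had the smallest unadjusted p of the 9 genes between genotypes on tagged ribosomes. It averaged 7.29 ± 1.48 CPM in TRAP mut and 5.87 ± 0.901 CPM in TRAP het libraries (SD, n = 8 each), and 4 of 8 TRAP mut libraries were above every TRAP het library. The log2 fold change was 0.28 ± 0.12 (SE; unadjusted p = 0.0344, edgeR adjusted p = 1), with a 95% interval of 0.02 to 0.54. Without TRAP libraries 3 to 6 it was 0.218 ± 0.135 (SE, edgeR adjusted p = 0.939). In the pre-TRAP libraries the averages were 10.9 ± 1.06 CPM in mut and 12.0 ± 2.46 CPM in het (SD, n = 4 each), and the log2 fold change was -0.15 ± 0.18 (edgeR adjusted p = 0.865). The difference between these 2 genotype contrasts was 0.45 ± 0.21 (unadjusted p = 0.038, edgeR adjusted p = 1).

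For the other 8 genes on tagged ribosomes, the log2 fold changes of mut over het ran from -0.23 for Smo (95% interval -0.51 to 0.05) to 0.23 for Shh (95% interval -0.39 to 0.84). Shh averaged 2.25 ± 0.841 CPM in TRAP mut and 1.87 ± 1.04 CPM in TRAP het libraries (SD, n = 8 each). The intervals reached -0.53 to 0.10 for Gli3, -0.52 to 0.18 for Ptch1, -0.49 to 0.21 for Boc, -0.58 to 0.49 for Hhip, -0.30 to 0.42 for Gli2 and -0.25 to 0.41 for Gas1. Without TRAP libraries 3 to 6 the values (± SE) were -0.303 ± 0.139 for Smo, -0.3 ± 0.142 for Boc, -0.29 ± 0.169 for Gli3 and -0.221 ± 0.196 for Ptch1. They were 0.067 ± 0.201 for Gli2, 0.088 ± 0.177 for Gas1, 0.121 ± 0.306 for Shh and 0.197 ± 0.261 for Hhip, and none was called. In the pre-TRAP libraries, Smo had the value farthest from 0, -0.34 (95% interval -0.81 to 0.14), with 48.8 ± 5.32 CPM in mut and 61.2 ± 20.7 CPM in het libraries (SD, n = 4 each). Ptch1 had -0.33 (95% interval -0.82 to 0.17), Gli3 -0.27 (-0.69 to 0.15), Gas1 -0.26 (-0.58 to 0.08), Hhip -0.13 (-0.57 to 0.31), Gli2 -0.08 (-0.47 to 0.30) and Boc 0.03 (-0.31 to 0.37). Leaving out 1 pre-TRAP library at a time, Smo ran from -0.498 without het library 23 to -0.103 without het library 19, and Ptch1 from -0.481 without het library 21 to -0.078 without het library 19. With the mesenchyme level as a covariate the values were -0.021 for Smo, -0.010 for Ptch1 and -0.040 for Gli3, none of them called. With the neuron level as a covariate instead they were -0.279 for Smo, -0.281 for Ptch1 and -0.252 for Gli3, again not called. The cause of these values was not tested. The 95% intervals given here include 0 and do not show that the genotypes were alike.

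Tests of interaction gave no called Hedgehog gene. The genotype difference was compared between TRAP and pre-TRAP, where edgeR called 0.0% of 24242 genes. Of the 9 genes 1 (Gli1, above) and of all genes 302 had an unadjusted p under 0.05, and DESeq2 called 0 genes. The genotype difference in TRAP was compared between experiments, where edgeR called 0.0% of 21577 genes. Of the 9 genes 0 and of all genes 455 had an unadjusted p under 0.05, and DESeq2 called 0 genes. The TRAP over pre-TRAP difference was compared between experiments, where edgeR called 0.0371% of 24242 genes. Of the 9 genes 2 (Shh and Gas1, above) and of all genes 1107 (4.57%) had an unadjusted p under 0.05, and DESeq2 called 0 of the 9 and 45 genes in all.

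Mean levels of some marker lists differed between the genotypes on tagged ribosomes, although the genes of a list did not all move alike. Of the 8 medial Kolliker organ markers, 4 had positive and 4 negative log2 fold changes of mut over het, from -0.36 to 1.21. Of the 10 prosensory markers, 2 were positive and 8 negative. In these lists edgeR called 2 Kolliker organ markers higher and 1 prosensory marker lower, against 0.0742% of all genes tested. The mean log2 level of prosensory markers, a list that holds Fgf20 itself, was 4.57 ± 0.132 in TRAP mut and 4.91 ± 0.183 in TRAP het libraries, and that of medial Kolliker organ markers was 5.81 ± 0.116 in TRAP mut and 5.5 ± 0.0697 in TRAP het libraries (SD, n = 8 each; two-sided exact permutation tests, adjusted over 9 lists, p = 0.00909 and 0.0028). Neuron markers were 6.58 ± 0.136 in TRAP mut and 6.46 ± 0.21 in TRAP het libraries, and mesenchyme markers 3.63 ± 0.463 in TRAP mut and 3.57 ± 0.515 in TRAP het libraries (exact permutation tests, adjusted p = 0.371 and 0.968). Their part in the genotype values of the Hedgehog genes was not tested for every list. With the neuron level as a covariate the values of Gas1 and Hhip changed sign, to -0.05 and 0.17, and neither was called. With it Smo had -0.355 ± 0.113 (edgeR adjusted p = 0.122) and Gli1 0.212 ± 0.12 (adjusted p = 0.401), and they were not called either.

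**Figure D3:**
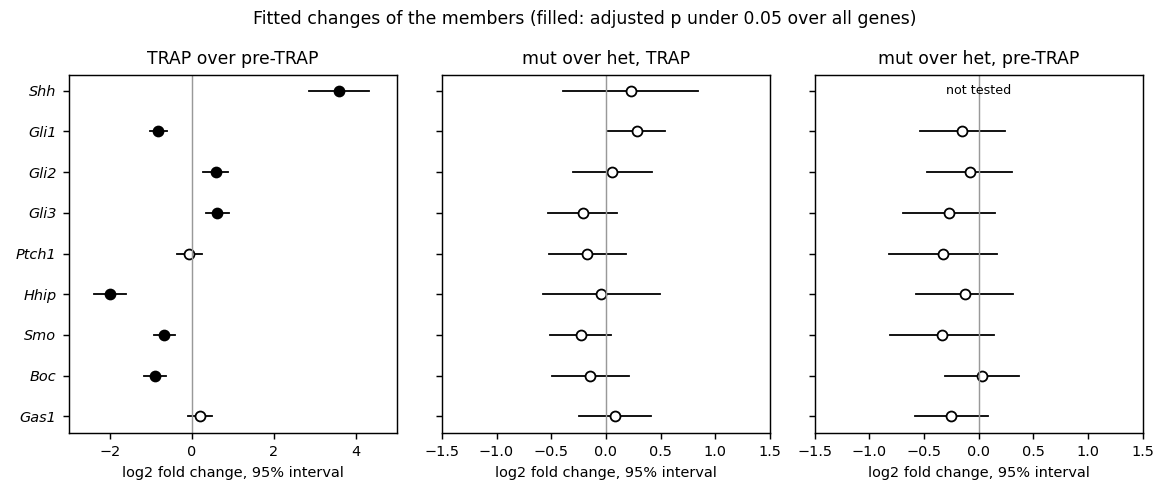
Fitted log2 fold changes (horizontal) of the 9 Hedgehog genes with their 95% intervals, for TRAP over pre-TRAP, mut over het in TRAP and mut over het in pre-TRAP; filled points have an edgeR adjusted p under 0.05 over all genes tested. In the left panel 7 of the 9 points are filled, and in the other panels none is; Shh was not tested in pre-TRAP.

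The experiments differed for 2 of the Hedgehog genes on tagged ribosomes. Gli1 averaged 7.48 ± 1.28 CPM in experiment 2 and 5.68 ± 0.805 CPM in experiment 1, and Gli3 averaged 69.9 ± 14.0 CPM in experiment 2 and 52.0 ± 13.7 CPM in experiment 1 (SD, n = 8 each). The log2 fold changes of experiment 2 over experiment 1 were 0.44 ± 0.12 for Gli1 (edgeR adjusted p = 0.0136) and 0.47 ± 0.15 for Gli3 (adjusted p = 0.0291). These 2 of 9 genes, 22.2%, stood against 23.0% of 21577 genes called in either direction and 14.1% called higher, so that the share of Hedgehog genes was close to the background. The count was 4 without TRAP het library 9, 1 without each of the TRAP libraries 5, 7, 11, 12, 13, 15 and 16, and 1 with no filter on low counts. In the pre-TRAP libraries 0 of the 8 genes tested were called, where edgeR called 14.7% of 21954 genes. At an unadjusted p under 0.05 there were 2 of the 8, Boc (0.34 ± 0.16) and Gli2 (0.44 ± 0.18), against 28.8% of all genes tested, and DESeq2 called 0 of the 8 and 3927 genes in all. Without pre-TRAP het library 19 the count was 1.

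The wider pathway was read from lists of genes by role, with counts from the same edgeR fit of TRAP over pre-TRAP, in which the median log2 fold change over all genes was -0.01. In that fit 27.9% of the 24242 genes tested were called higher and 31.2% lower, and the counts of each list below stand against these shares. Of 8 genes for other ligands and ligand release, 1 was higher and 7 were lower in TRAP, with a median of -1.12. The ligands Ihh and Dhh were both low: Ihh averaged 0.288 ± 0.218 CPM in TRAP and 0.593 ± 0.188 CPM in pre-TRAP libraries (log2 fold change -1.03 ± 0.38, adjusted p = 0.0227), and Dhh averaged 0.116 ± 0.0882 CPM in TRAP and 0.260 ± 0.158 CPM in pre-TRAP libraries (-1.20 ± 0.41, adjusted p = 0.0136). Shh was thus the ligand gene that was higher on tagged ribosomes, and the others were lower. Dhh, counted among the 7 lower, had 0 to 13 counts per TRAP library and 5 to 17 per pre-TRAP library. It passed the filter on low counts in pre-TRAP, where it is higher, and not in the TRAP libraries alone. Shh passed that filter in TRAP, where it is high, and not in the pre-TRAP libraries alone. The secreted carriers Scube1, Scube2 and Scube3, which help lipid-bearing ligand leave the cell, were lower by log2 fold changes of -2.08, -2.02 and -1.40. Disp2, a relative of the ligand-releasing transporter Disp1, was higher (1.24 ± 0.24).

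Of 13 further receptors, co-receptors and Smo regulators, 4 were higher, 5 were lower and 4 were not called, with a median of 0.01. Cdon, the close relative of Boc, averaged 4.70 ± 1.08 CPM in TRAP and 8.13 ± 2.43 CPM in pre-TRAP libraries (SD, n = 16 and 8) and fell as Boc did (log2 fold change -0.80 ± 0.15, adjusted p = 5.58e-05). Gpc3, a heparan sulfate proteoglycan that competes for the ligand, had the largest fall of the list, with 33.0 ± 17.9 CPM in TRAP and 131 ± 19.9 CPM in pre-TRAP libraries (-2.01 ± 0.19, adjusted p = 8.56e-10). The ciliary partners Evc2 and Evc, whose proteins form 1 complex, went opposite ways: Evc2 rose (1.17 ± 0.15) and Evc fell (-1.08 ± 0.14). Arrb2, a beta-arrestin that takes part in moving Smo to the cilium, rose by 1.34 ± 0.14, and Mosmo, a negative regulator of Smo, fell by 0.48 on the log2 scale.

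Among 10 regulators of the Gli proteins, 4 were higher, 4 were lower and 2 were not called, with a median of -0.01. Sufu, which binds Gli proteins and holds them back, averaged 14.3 ± 2.35 CPM in TRAP and 19.8 ± 5.11 CPM in pre-TRAP libraries (log2 fold change -0.46 ± 0.12, adjusted p = 0.00136). Spop, an adaptor for Gli breakdown, was lower (-0.82 ± 0.13), as were Stk36 (-0.44) and Btrc (-0.40), whereas the kinase genes Prkaca (0.67 ± 0.13) and Gsk3b (0.47 ± 0.17), whose products mark Gli proteins for processing, were higher. Of 9 genes for transport in the primary cilium, 3 were higher, led by the kinesin motor genes Kif3b (0.64) and Kif3a (0.59), 3 were lower, led by Ift172 (-0.54) and Ift88 (-0.48), and 3 were not called. Rpgrip1l was higher (0.27) and Arl13b lower (-0.28).

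Of 12 genes known as Hedgehog responses in other tissues, 3 were higher, 8 were lower and 1 was not called, with a median of -1.24. Osr1, Foxf1, Foxf2 and Foxl1, transcription factor genes known from mesenchyme, were lower by log2 fold changes of -2.96 ± 0.17, -2.76 ± 0.57, -2.48 ± 0.18 and -2.31 ± 0.25. Foxf1, counted among the 8 lower, rests on few reads, 0 to 18 counts per TRAP library and 9 to 19 per pre-TRAP library. It passed the filter on low counts in pre-TRAP, where it is high, and not in the TRAP libraries alone. Ccnd2, a cyclin of the cell cycle, fell as well, with 91.8 ± 33.8 CPM in TRAP and 587 ± 46.2 CPM in pre-TRAP libraries (-2.68 ± 0.17, adjusted p = 2.96e-13). Nkx2-2, a homeobox gene of the ventral neural tube, was called higher on few reads, 48 counts in 8 of the 16 TRAP libraries and 1 count in the pre-TRAP libraries. Nkx2-2 passed the filter on low counts through the TRAP libraries, where it is high, and without it the list had 2 of 11 genes higher and 8 lower, with a median of -1.46. Its ratio of summed normalised counts was 24.0 (95% exact binomial interval 4.10 to 966, counting error only). The other called rises, named after their values were seen, were those of Mycn (1.47 ± 0.10), a growth-promoting transcription factor gene, and of Ccnd1 (0.31 ± 0.11). Mesenchyme and cartilage markers fell in the same comparison (11 of 13 and 5 of 8 called lower), and their part in these list counts was not tested. Without TRAP libraries 3 to 6, the counts of higher and lower genes in the 5 lists stayed the same except that 5 Gli regulators were lower. Within experiments fewer genes were called, 45.4% of all genes tested in experiment 2 and 45.6% in experiment 1: in experiment 2 the response list had 2 higher and 8 lower and in experiment 1 it had 1 higher and 7 lower, while the Gli regulators had 2 higher and 3 lower in experiment 2 and 1 higher and 1 lower in experiment 1.

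**Figure D4:**
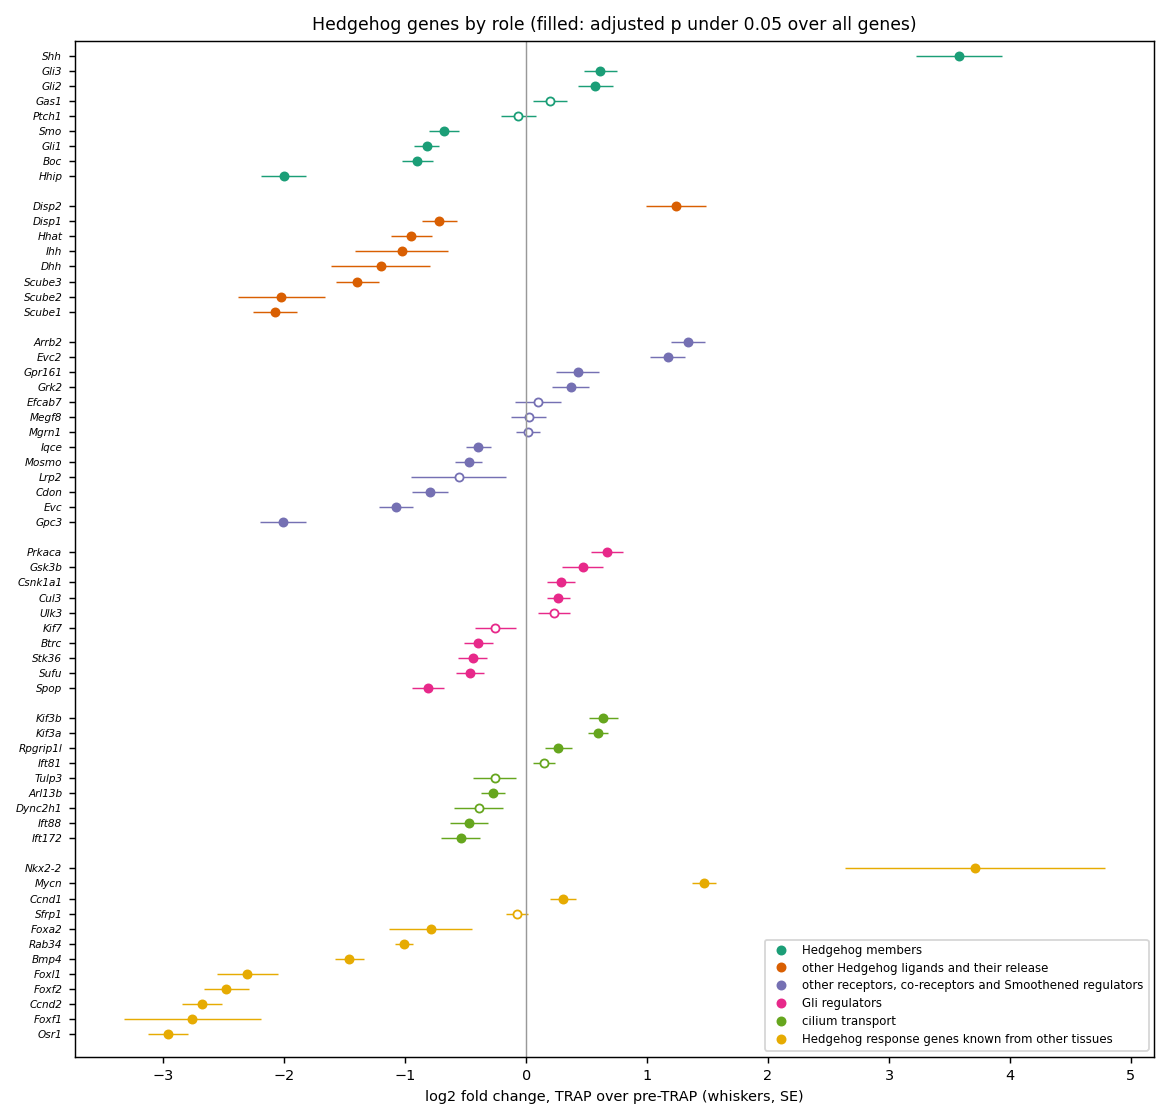
Log2 fold changes of TRAP over pre-TRAP with their SE (horizontal) for the 9 Hedgehog genes and the 5 wider lists, sorted within each list; filled points have an edgeR adjusted p under 0.05. The ligand-release and response lists lie mostly below 0, with medians of -1.12 and -1.24, and the other lists lie on both sides.

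In the genotype comparisons edgeR called 0 of the 49 wider-list genes tested in TRAP and 0 of the 51 tested in pre-TRAP. At an unadjusted p under 0.05 there were 4 in TRAP and 5 in pre-TRAP, against 3.77% and 4.77% of all genes tested, and DESeq2 called 1 in TRAP and 0 in pre-TRAP. The 1 was Ccnd1, a cyclin that drives entry into the cell cycle, named after its values were seen. It averaged 104 ± 25.9 CPM in TRAP mut and 151 ± 38.0 CPM in TRAP het libraries (SD, n = 8 each; edgeR log2 fold change -0.55 ± 0.12, adjusted p = 0.0802; DESeq2 -0.55, adjusted p = 0.00586), and 89.3 ± 38.3 CPM in pre-TRAP mut and 118 ± 28.5 CPM in pre-TRAP het libraries (SD, n = 4 each; -0.49 ± 0.18, edgeR adjusted p = 0.837). Cdon had 0.06 ± 0.17 in TRAP and -0.32 ± 0.25 in pre-TRAP, and Sufu had -0.10 ± 0.14 in TRAP and -0.27 ± 0.19 in pre-TRAP. Ihh had -0.04 ± 0.55 in TRAP and -0.33 ± 0.35 in pre-TRAP. Dhh was tested in pre-TRAP alone, with -0.35 ± 0.56.

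Apart from the groups, some pairs of Hedgehog genes varied together. After the mean of each group in each experiment was subtracted from log2(CPM + 0.5), Gli1 and Smo had a Pearson r of 0.82 over the 24 libraries (Spearman rho 0.82), Ptch1 and Smo 0.80 (rho 0.79), Gli3 and Ptch1 0.78 (rho 0.78), Gli2 and Gli3 0.76 (rho 0.76) and Shh and Gas1 0.75 (rho 0.75). These are the highest of 36 pairs, of which 7 were below 0 and whose median r was 0.33. The lowest were Shh and Boc with -0.39 and Boc and Gas1 with -0.38. Without the 2 libraries farthest from the median of the first gene, the r of the 5 highest pairs were 0.76, 0.78, 0.70, 0.75 and 0.65. In the 16 TRAP libraries alone they were 0.67, 0.68, 0.69, 0.72 and 0.76. Gli1 and Ptch1, both known targets of the pathway, had an r of 0.45 (rho 0.45), and 0.06 in the 16 TRAP libraries alone. Hhip, the other such target, had -0.25 with Gli1 and 0.08 with Ptch1, and -0.66 and -0.11 in the 16 TRAP libraries alone. Some genes went with cell type markers: Smo and neuron markers had 0.80, Smo and prosensory markers 0.82, Gli2 and Schwann cell and glia markers 0.76, Gli1 and neuron markers 0.73, Gli1 and prosensory markers 0.70, Hhip and mesenchyme markers 0.73, and Boc and cartilage markers 0.69. These are the highest of 81 values of a gene with a marker list. Of the 81, 21 were at 0.5 or more and 32 were below 0, with a median r of 0.08. Shh had 0.53 with neuron markers and 0.59 with prosensory markers. Each pre-TRAP group had 2 libraries in each experiment, which after the subtraction differ from 0 equally in opposite directions, so the 24 points are not independent. The points share the dissection, depth and make-up of each library, and these values are descriptions.

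Among about 14780 genes with a mean of at least 2 CPM, those most like Shh in this residual variation were Lrfn1 (r = 0.93), B4galt6 (0.91), Errfi1 (0.91), Camk2n1 (0.88) and Nhlh2 (0.88). Those most like Gli1 were Nudc-ps1, R3hdm2, Rbm15b, Ppard and Zfp346, each with r = 0.89. Nudc-ps1 is named as a pseudogene, and its reads could not be told apart from those of its parent gene here. Those most like Ptch1 were Adgra3 (0.93), Phip (0.90), Trerf1 (0.90), Kmt2e (0.88) and Zfp451 (0.87). None of the 15 was a Hedgehog member, and the closest member to each of the 3 genes was Gas1 for Shh (0.75), Smo for Gli1 (0.82) and Smo for Ptch1 (0.80).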

How the data were processed

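PolyA RNA of mouse ventral otocysts was sequenced in 24 libraries made with a Clontech SMARTer kit, per the labels. The authors' deposited table held unnormalised counts by Ensembl gene for each library. STAR, DESeq2 and the build GRCm38.p5 are named, without versions, in the submitters' processing notes. The annotation, the counting tool and any strand setting were not given in the sources used here, so overlapping antisense reads could not be told apart. Symbols were matched for 53274 of 53946 genes. No pair of libraries looked like a copy (68 pairs within groups, chi-square per degree of freedom 23.8 to 234).

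Each comparison was fitted over all genes in edgeR 4.0.16 (R 4.3.3) with TMM scaling, filterByExpr (minimum count 10), experiment as a covariate and quasi-likelihood F tests. Genes were called at an adjusted p (Benjamini-Hochberg) under 0.05. The labels do not say that libraries come from separate litters, so p-values measure the spread between pooled libraries, which may be technical. CPM used TMM factors, and log2 levels a pseudocount of 0.5. Scripts were checked on simulated counts.

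The members, lists and most alternatives were chosen with earlier results of these data known. All 9 members were named, with up to 6 called genes of largest change per wider list, Cdon, Sufu, Ihh and Dhh, and the 5 genes most like Shh, Gli1 and Ptch1. Alternatives were DESeq2 factors, the DESeq2 1.42.0 test, no filter, no experiment covariate, each experiment alone, 1 fit of all libraries, mesenchyme or neuron level as covariate, and leaving out libraries. Promoters came from RefSeq (GRCm38.p6). Levels per transcript length and the promoters of Shh, Gli1 and Boc were not analysed here, and 1 gene of the wider lists is not reported here.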

Additional observations from a re-analysis of the deposited data

Results flagged for a closer look

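In 5 of 36 sets of libraries (9 genes in 4 groups), 1 library stood far from the rest of its group. The rule is set to flag about 1 in 20 such sets by chance if the values are normally distributed, a rate that was not measured here. Boc had 12.8 CPM in TRAP het library 3, where the group's lowest was 8.01 CPM. Library 3 is among the 4 TRAP libraries with the most mesenchyme marker RNA. Ptch1 had 29.0 CPM in TRAP het library 9, where the group's median was 17.5 CPM. Gli3 had 47.1 CPM in pre-TRAP mut library 18, where the other 3 of the group had 31.8 to 32.8 CPM. Hhip had 11.3 CPM in pre-TRAP het library 17, where the other 3 had 7.59 to 8.09 CPM. Shh had 0.423 CPM in pre-TRAP het library 19, from 15 counts, where the other 3 had 0.0836 to 0.119 CPM.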

How the results depend on the processing

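No Hedgehog gene was called in the genotype comparisons or the interactions under any alternative that was run. For TRAP over pre-TRAP, 7 genes were called with each library left out in turn, as in the main fit, which called 59.1% of all genes tested. In experiment 1 alone 6 were called, against 45.6% of all genes tested, and in experiment 2 alone 8, against 45.4%. In experiment 1 alone Gas1 reversed to -0.135 and Gli3 missed the threshold, and the cause was not tested. With libraries left out in turn Ptch1 ran from -0.137 to 0.073. Of the uncalled genotype values in TRAP, those that changed sign on the log2 scale were Boc 0.005, Gas1 -0.123 and Hhip 0.096 in experiment 1 alone, Gli2 -0.118 in experiment 2 alone, Gas1 -0.047 and Hhip 0.172 with the neuron level as covariate, and Hhip 0.197 without TRAP libraries 3, 4, 5 and 6. Left-out ranges crossed 0 for Gli2 (-0.033 to 0.131), Hhip (-0.148 to 0.127) and Gas1 (-0.016 to 0.175). In pre-TRAP, with the mesenchyme level as covariate, Gli1 was 0.024, Gli2 0.088 and Hhip 0.005, and left-out ranges crossed 0 for Boc (-0.051 to 0.149), Gli2 (-0.176 to 0.071) and Hhip (-0.235 to 0.029). For experiment 2 over experiment 1, the count of 2 in TRAP became 1 with no filter on low counts and ran from 1 to 4 with libraries left out, and the count of 0 in pre-TRAP ran from 0 to 1. The fits without TRAP libraries 3 to 6 for TRAP over pre-TRAP, the experiments and the genotype by method interaction were added after seeing the data. No paired analysis was possible because the labels number the samples 1 to 24 without repeats and tie no TRAP library to a pre-TRAP library. Depth limits Shh most, with 3 to 15 counts per pre-TRAP library.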
